A study of Mus musculus with 5 samples.

Results

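Genes listed with more than 1 separate H3K4me3 region are described here, in neuronal nuclei of the mouse striatum. A gene was taken when its symbol stood beside at least 2 different regions of 1 chromosome in the H3K4me3 list, and all those regions were kept. The rule was met by 488 of 15056 listed genes (3.24%), which held 926 of the 13142 H3K4me3 regions (7.05%). Of these genes, 467 had 2 regions, 20 had 3, and Pde4dip alone had 4. Neighbouring genes can share a region, and 67 of the 926 regions served 2 or more of the 488 genes. The number of regions, their H3K4me3 scores and their widths come from the list that chose the genes, so they are given as a description: the genes were chosen by their number of listed H3K4me3 regions, each with a score of at least 2. Overlap with H3K27ac, RNA polymerase II (Pol II) and H3K27me3 was not part of the choice.

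The nuclei came from striata of C57BL/6 mice aged 8 weeks and were isolated by a sort for NeuN, a nuclear protein of most neurons. The labels call them medium spiny neurons, the GABAergic output neurons of the striatum. Chromatin immunoprecipitation was done with 4 antibodies, with 1 library each and 1 input library that enters only through scores given over input. How many animals were pooled is not given in the sources used here, and there were no replicates, no treatment and no second genotype. The files list regions near annotated transcription starts of build mm9 and give no read depth, so a region without a mark is one at which none was listed, and depth differences between libraries were not tested. Intervals in parentheses after a percentage are exact (Clopper-Pearson) 95% intervals, which cover counting error only, and no p-value could be computed across samples. In the lists, all 7 medium spiny neuron markers and all 5 general neuron markers had H3K27ac. Pol II was listed for 7 and 4 of these, and H3K27me3 also for 3 and 1. H3K27ac was listed for 0 of 6 interneuron, 0 of 5 astrocyte, 1 of 5 oligodendrocyte, 0 of 5 microglia and 0 of 5 endothelial markers. H3K27me3 was listed for 6, 5, 2, 4 and 5 of these.

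Many mammalian genes have more than 1 promoter, and the choice between them sets the first exon of the transcript and often the N terminus of the protein. H3K4me3 is deposited around transcription starts, most strongly at CpG islands, whether or not the gene is highly transcribed. H3K27ac and Pol II mark starts in use, whereas H3K27me3 is laid down by Polycomb repressive complex 2 and is typical of silent CpG-rich promoters. Long neuronal genes for adhesion molecules, scaffolds and channels are known for internal promoters that give shorter proteins. In the text, a region with H3K27ac and Pol II and without H3K27me3 is called active, and one with H3K27me3 and neither of the others is called H3K27me3-only.

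The sequences before the starts of 4 such genes show how unlike the promoters of 1 gene can be. Prkcz, Net1 and Kcnip3 each had 1 active and 1 H3K27me3-only region, and Nlgn1, given for comparison, had 2 active regions. Each line holds the 250 bases before an annotated start, read 5′ to 3′ on the transcribed strand, from RefSeq on GRCm38.p6, with each CpG dinucleotide in capitals. The starts were paired with the mm9 regions by their order and spacing along the gene, and no coordinate was converted between builds.
Prkcz, upstream start, H3K27me3-only region, chr4:155361429-155361678, minus strand: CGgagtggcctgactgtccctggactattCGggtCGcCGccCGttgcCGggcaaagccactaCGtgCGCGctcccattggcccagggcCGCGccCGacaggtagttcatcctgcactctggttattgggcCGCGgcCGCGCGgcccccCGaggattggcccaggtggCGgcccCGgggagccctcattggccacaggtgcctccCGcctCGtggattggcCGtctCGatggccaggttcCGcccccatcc
Prkcz, downstream start, active region, chr4:155344750-155344999, minus strand: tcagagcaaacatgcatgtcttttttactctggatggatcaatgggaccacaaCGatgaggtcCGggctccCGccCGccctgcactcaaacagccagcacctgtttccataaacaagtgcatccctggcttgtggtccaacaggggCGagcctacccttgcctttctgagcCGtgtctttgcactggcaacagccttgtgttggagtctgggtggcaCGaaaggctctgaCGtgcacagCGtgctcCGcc
Net1, upstream start, H3K27me3-only region, chr13:3918221-3918470, minus strand: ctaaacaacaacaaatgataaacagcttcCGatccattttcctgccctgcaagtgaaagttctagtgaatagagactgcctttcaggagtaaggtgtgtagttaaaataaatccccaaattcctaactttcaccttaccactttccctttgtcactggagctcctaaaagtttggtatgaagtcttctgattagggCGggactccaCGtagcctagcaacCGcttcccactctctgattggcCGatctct
Net1, downstream start, active region, chr13:3893582-3893831, minus strand: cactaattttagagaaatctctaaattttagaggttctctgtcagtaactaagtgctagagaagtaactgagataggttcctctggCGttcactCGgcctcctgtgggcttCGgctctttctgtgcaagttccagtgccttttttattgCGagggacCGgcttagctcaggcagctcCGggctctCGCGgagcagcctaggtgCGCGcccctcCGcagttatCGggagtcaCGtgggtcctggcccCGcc
Kcnip3, upstream start, active region, chr2:127521393-127521642, minus strand: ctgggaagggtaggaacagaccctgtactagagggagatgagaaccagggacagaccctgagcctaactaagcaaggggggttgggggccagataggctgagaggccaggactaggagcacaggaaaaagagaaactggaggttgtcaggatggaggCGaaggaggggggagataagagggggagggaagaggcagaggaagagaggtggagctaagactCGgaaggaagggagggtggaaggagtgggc
Kcnip3, downstream start, H3K27me3-only region, chr2:127482500-127482749, minus strand: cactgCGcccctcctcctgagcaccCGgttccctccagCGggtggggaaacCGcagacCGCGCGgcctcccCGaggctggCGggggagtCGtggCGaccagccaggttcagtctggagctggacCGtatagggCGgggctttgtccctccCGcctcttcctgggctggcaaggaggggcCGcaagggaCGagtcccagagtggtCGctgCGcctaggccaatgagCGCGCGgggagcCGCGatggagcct
Nlgn1, upstream start, active region, chr3:26331910-26332159, minus strand: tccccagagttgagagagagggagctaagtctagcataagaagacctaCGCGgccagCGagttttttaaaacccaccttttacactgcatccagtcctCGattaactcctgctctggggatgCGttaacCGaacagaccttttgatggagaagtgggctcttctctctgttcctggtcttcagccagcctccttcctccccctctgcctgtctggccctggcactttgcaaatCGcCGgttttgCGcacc
Nlgn1, downstream start, active region, chr3:26153987-26154236, minus strand: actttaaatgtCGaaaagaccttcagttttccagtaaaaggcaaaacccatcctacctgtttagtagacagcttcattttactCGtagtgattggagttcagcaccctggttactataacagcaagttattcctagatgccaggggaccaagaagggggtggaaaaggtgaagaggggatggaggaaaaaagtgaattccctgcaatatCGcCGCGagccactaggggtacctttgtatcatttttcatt
Prkcz had 25 CpG before the start in its H3K27me3-only region and 10 before the start in its active region. Kcnip3 had 23 before the start in its H3K27me3-only region and 2 before that in its active region. Net1 had the opposite order, with 5 and 14. The 2 active starts of Nlgn1 had 9 and 5, so neither state went with a fixed CpG count in these 4 genes.

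The genes fell into different kinds when the transcripts beside each region were compared. In 228 genes (46.7%) each region was listed with a transcript that the others lacked, and these separate-transcript genes made up 1.51% of the genes with H3K4me3. In 244 genes (50%, or 1.62% of the genes with H3K4me3) the same transcript was listed with neighbouring regions, so the regions lay around 1 start and are not separate promoters in the annotation. Another 6 genes had both kinds of neighbour (Dnmt3a, Espn, Mark2, Nfix, Plec and Trip4). The last 10 had 1 transcript placed at regions far apart, mostly histone genes and predicted genes that exist in copies. The name several separate promoters thus fits at most the 228 separate-transcript genes, and the other kinds are given beside them. This kind rests on the listed transcripts only, and different starts were not required. The count was 183 when only regions listed for 1 symbol were kept, and RefSeq starts fitted the regions in only 1 way in 142 of the 228. Promoter is used below for the listed regions of these genes with this limit.

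Since the single-start kind was limited to gaps of at most 6 kb, the distances are a description of the kinds. The smallest gap between regions of a separate-transcript gene had a median of 36.25 kb, with quartiles of 12.1 and 83.0 kb and a range of 0.2 to 2177.7 kb. It was over 10 kb in 177 of the 228 and over 100 kb in 51. In single-start genes the median gap was 0.6 kb and the widest was 5.5 kb. Regions of separate-transcript genes had a median H3K4me3 score of 6.91 and a median width of 6.4 kb, against 7.14 and 6.4 kb in genes with 1 region. Regions of single-start genes were lower, with a median score of 3.76, and 41.6% of them scored under 3, against 14.1% in separate-transcript genes and 8.96% in genes with 1 region. The lowest listed score was 2.0, so whether a gene with a weak additional region belongs to the set rests on where the list stops.

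**Figure D1:**
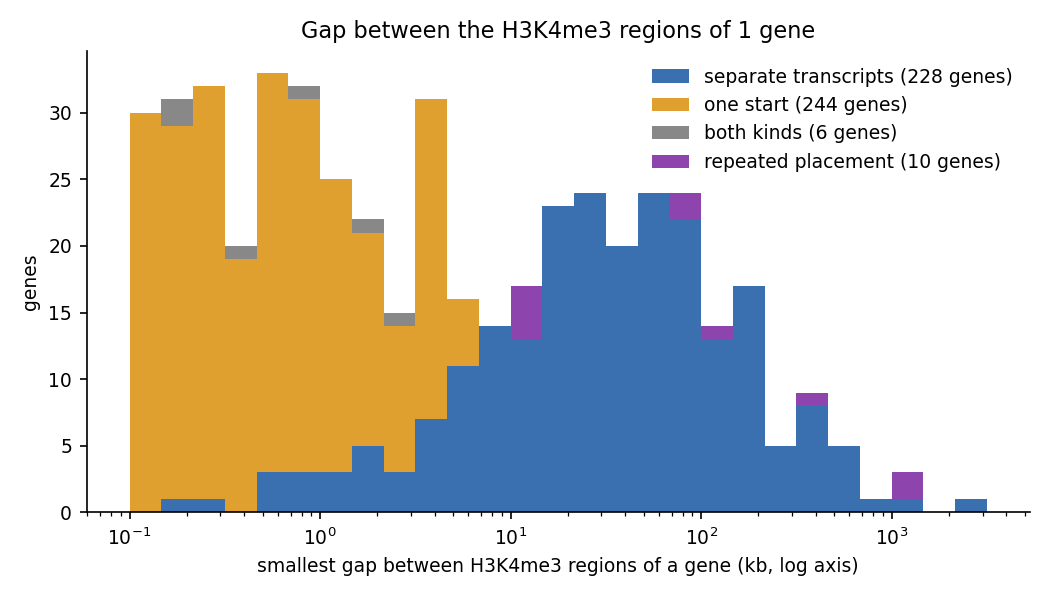
Number of genes (vertical axis) by the smallest gap between their H3K4me3 regions (kb, log axis), coloured by kind. Single-start genes lie between 0.1 and 5.5 kb, and separate-transcript genes spread around a median of 36.25 kb up to 2177.7 kb.

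Separate promoters had an H3K27ac share close to that of the promoters of other genes and lower Pol II and H3K27me3 shares. Among all 13142 H3K4me3 regions, 72.8% overlapped H3K27ac, 57.8% Pol II and 35.5% H3K27me3. In the 468 regions of separate-transcript genes the shares were 71.8% (67.5 to 75.8), 50.6% (46.0 to 55.3) and 28.4% (24.4 to 32.7). In the 12207 regions of genes with 1 region they were 73.9%, 59.2% and 35.5%. The Pol II and H3K27me3 shares of separate promoters were therefore below those of genes with 1 region by more than their counting intervals, and the H3K27ac share was not. These intervals count regions of 1 gene as independent, so they may be too narrow. Single-start genes went the other way for H3K27me3 when scores were not matched. At like H3K4me3 scores below 8 their H3K27me3 share was instead the lower one, as given below. Their 430 regions overlapped H3K27ac in 43.7% (39.0 to 48.6), Pol II in 30.2% (25.9 to 34.8) and H3K27me3 in 46.0% (41.3 to 50.9). Over all 926 regions the shares were 58.0%, 40.4% and 36.5%, an average over unlike kinds.

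**Figure D2:**
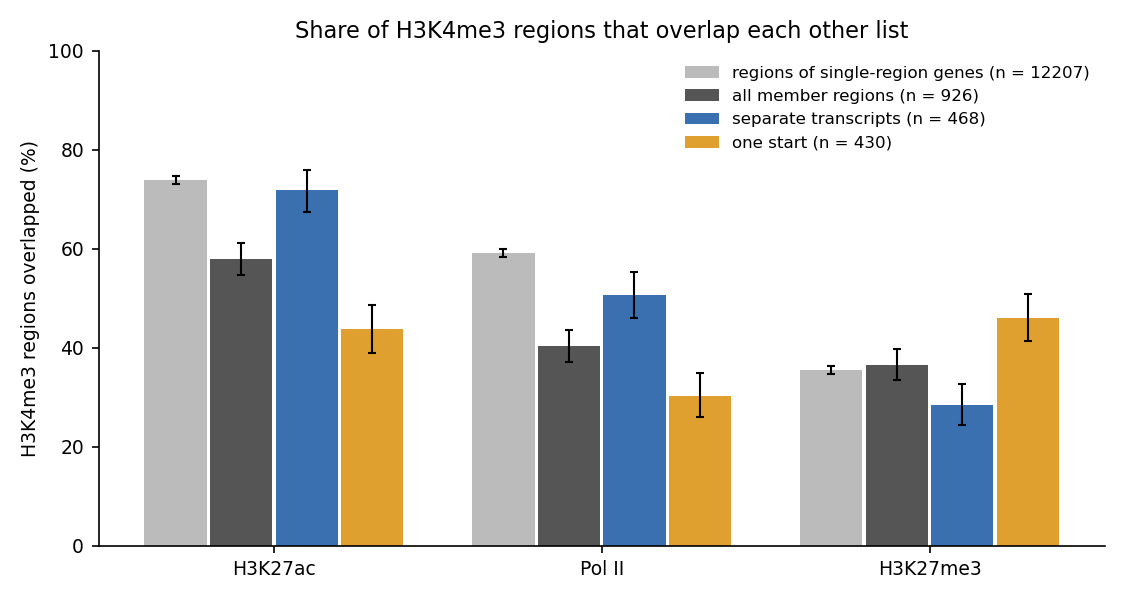
Percent of H3K4me3 regions (vertical axis) that overlap a listed H3K27ac, Pol II or H3K27me3 region by at least 1 bp, for genes with 1 region and for the kinds of gene with more. Bars carry exact 95% intervals, and the separate-transcript bars (71.8%, 50.6% and 28.4%) stand apart from the single-start bars (43.7%, 30.2% and 46.0%) for all 3 marks.

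Weak additional promoters often had none of the other marks. H3K4me3 stood alone at 47 of the 468 separate regions, 10.04% (7.47 to 13.1), at 74 of the 430 single-start regions (17.2%) and at 4.28% (3.93 to 4.66) of the regions of genes with 1 region. The contrast with other genes was widest at low scores. With an H3K4me3 score between 2 and 3, H3K27me3 overlapped 25 of 66 separate regions, 37.9% (26.2 to 50.7), but 79.6% (77.1 to 82.0) of the 1094 regions of genes with 1 region. In single-start genes it was 64.8% (57.3 to 71.8) of 179 regions. Their share was 54.2% (42.9 to 65.2) at 3 to 5, 22.7% (15.3 to 31.7) at 5 to 8 and 20.7% at 8 or more. Genes with 1 region had 66.7% at 3 to 5 and 34.1% (32.7 to 35.5) at 5 to 8, so the single-start share was lower at each step below 8. Between 3 and 5 the shares of separate regions and of genes with 1 region were 48.9% (38.2 to 59.7) and 66.7%. At scores of 8 or more they were 12.8% and 13.8%, with no difference beyond the intervals. H3K27ac went with the score in both sets: in separate regions it was listed at 9.09% of regions scoring 2 to 3, 44.4% at 3 to 5, 87.1% at 5 to 8 and 97.7% at 8 or more. In genes with 1 region the same steps were 4.48%, 28.6%, 83.5% and 99.0%. Pol II was listed at 6.06%, 12.2%, 47.9% and 90.1% of separate regions in these steps and at 2.47%, 15.0%, 57.1% and 92.6% of the regions of genes with 1 region, with overlapping intervals at every step. From 5 to 8 the intervals were 39.3 to 56.5 and 55.6 to 58.5. Each step holds only part of the separate regions and has a wider interval. The steps therefore cannot show whether the lower Pol II share of separate promoters remains at matched H3K4me3 scores.

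Promoters of 1 gene differed on Pol II in more genes than on H3K27ac or H3K27me3. Of the 228 separate-transcript genes, 128 (56.1%) had H3K27ac on every region, 73 (32.0%, 26.0 to 38.5) on some and 27 on none. Pol II was on every region of 62 genes, on some regions of 108 (47.4%, 40.7 to 54.1) and on none of 58. H3K27me3 was on every region of 44, on some of 41 (18.0%) and on none of 143. These counts depend on how common a mark is: Pol II was at 50.6% of separate regions, H3K27ac at 71.8% and H3K27me3 at 28.4%. The order of the marks is thus a description, and whether it goes beyond these shares was not tested. Written in the direction of transcription, the commonest combination among the 215 genes with 2 regions was active and active, in 52 (24.2%). It was followed by active and then H3K27ac alone in 31, and by active and then H3K4me3 alone in 21. The mirror images of these, with the active region downstream, were found in 17 and 5 genes. H3K27me3-only at both regions was found in 17 genes.

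Each mark was counted on more upstream than downstream promoters. The 2 regions belong to the same genes, so overlap of their separate intervals cannot judge the difference, which was not tested. H3K27ac was on the first region of 172 of 228 genes, 75.4% (69.3 to 80.9), and on the last of 159, 69.7% (63.3 to 75.6). Pol II was on the first region of 131, 57.5% (50.8 to 64.0), and on the last of 102, 44.7% (38.2 to 51.4). In 68 genes Pol II was on the first region only, and in 39 on the last only. H3K27me3 was on the first region only in 29 genes and on the last only in 11. The median H3K4me3 score was 7.66 at first and 6.05 at last regions, and the first was higher in 143 of 228 genes, which is a description of the list that chose them. In single-start genes the counts were nearly equal: Pol II was on the first region only in 37 and on the last only in 41, and H3K27me3 in 14 and 15.

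**Figure D3:**
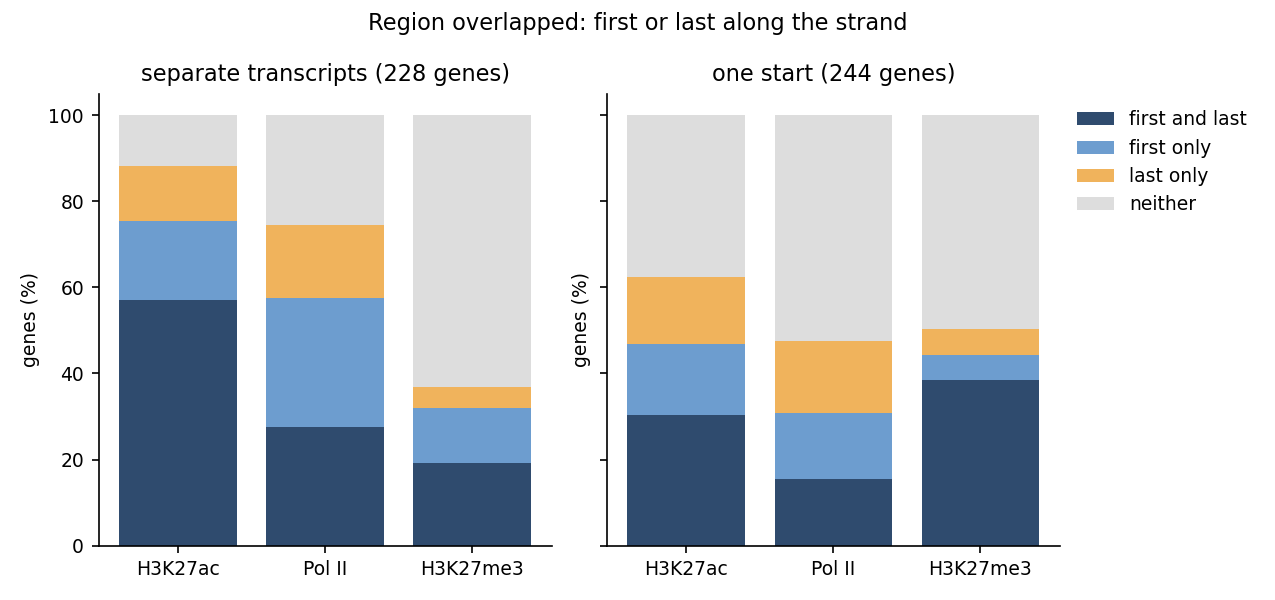
Percent of genes (vertical axis) whose first and last H3K4me3 regions along the strand overlap each mark, for separate-transcript genes (left) and single-start genes (right). Pol II on the first region only takes 68 of 228 separate-transcript genes and on the last only 39, while in single-start genes the counts are 37 and 41.

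Of the promoters of a gene, the one with the higher H3K4me3 score was mostly the one with H3K27ac and Pol II. H3K27ac was on the higher-scoring region of 195 of 228 genes, 85.5% (80.3 to 89.8), and on the lower-scoring region of 134, 58.8% (52.1 to 65.2). It was on both in 129 genes, on neither in 28, on the higher-scoring region only in 66 and on the lower-scoring region only in 5. Pol II was on both in 63 genes, on neither in 58, on the higher-scoring region only in 99 and on the lower only in 8. H3K27me3 did not follow the score, with 21 genes on the higher only and 18 on the lower only. The 5 exceptions, named after their values were seen, were Eps15, Net1, Rab27b, Synj2 and Trpm3. In Net1, a guanine nucleotide exchange factor for RhoA, the higher-scoring region (7.31) was H3K27me3-only and the lower-scoring one (4.73) active. In Rab27b, a small GTPase of vesicle secretion, the active region scored 4.12 and the region without other marks 4.32, so the order rests on a small difference. The 2 scores were also close in Synj2 (4.11 and 4.19) and Trpm3 (6.11 and 6.30), and Eps15 had H3K27ac (2.24) at the region scoring 4.89 and not at the one scoring 6.16.

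**Figure D4:**
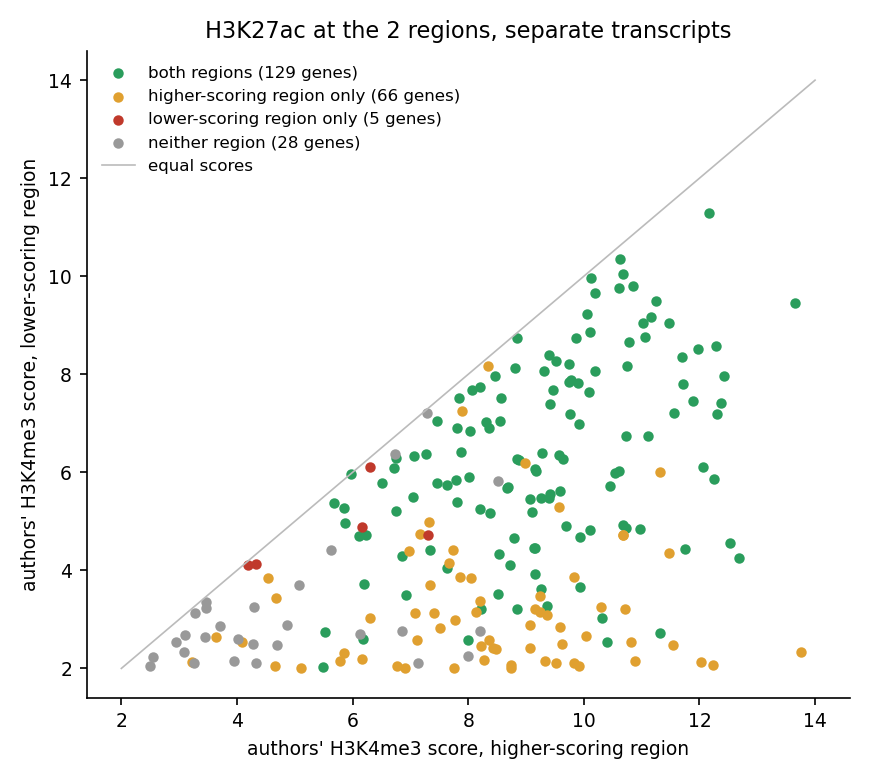
H3K4me3 score, as given by the authors, of the highest-scoring (horizontal axis) and lowest-scoring (vertical axis) region of each of the 228 separate-transcript genes, coloured by which of them overlaps H3K27ac. Genes with H3K27ac on both (129) fill the upper part, and the 66 with H3K27ac on the higher-scoring region only lie mostly where the other region scored under 5.

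Every promoter was active in 53 separate-transcript genes (23.2%) and 29 single-start genes. The 6 described here are those with the most regions and then the highest H3K27ac score. Celf2, an RNA-binding protein that controls splicing, had 3 active regions 191.5 and 306 kb apart, with H3K4me3 scores of 5.68, 3.21 and 8.21 from upstream to downstream. The middle one, listed for isoform 2, was the weakest in H3K27ac (3.62, against 8.14 and 6.25) and in Pol II (2.05, against 2.94 and 2.68). The last was the widest, at 27.8 kb. Kctd1, a BTB domain protein, had H3K27ac scores of 8.90 and 13.1 at regions 80.0 kb apart. Rai1, a nuclear regulator of transcription, had 11.4 and 7.36 at regions 27.2 kb apart. Runx1t1, a corepressor, was uneven: its upstream region scored 10.8 for H3K27ac and spanned 16.7 kb, and its downstream region, listed for isoform 3, scored 3.5 and spanned 6.0 kb. Epc1, a subunit of the NuA4 histone acetyltransferase complex, had its higher H3K27ac score downstream (10.3, against 4.79), although its H3K4me3 scores were 7.52 and 8.56. Dlgap4, a scaffold protein of the postsynaptic density, had 2 active regions 91.4 kb apart, with H3K27ac scores of 10.1 and 6.94. Its downstream H3K4me3 region was the wider, at 22.5 kb against 12.9 kb.

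Synaptic adhesion and scaffold genes had several regions in 13 of 48 genes with H3K4me3 (27.1%), against 3.24% of all genes. Neither this nor the later comparisons with all genes were matched for the number of annotated starts. These 13 are Ank3, Cntn1, Cntn4, Cntnap2, Dlgap1, Dlgap4, Epb4.1l1, Grip1, Magi1, Magi2, Nlgn1, Shank1 and Shank2, of which 11 were separate-transcript genes. H3K27ac was on every region of 11 of the 13, against 204 of all 488 genes (41.8%) and 56.1% of separate-transcript genes. H3K27me3 was on every region of none, against 142 of the 488 (29.1%) and 44 of the 228 (19.3%). Nlgn1, the postsynaptic adhesion molecule neuroligin 1, had 2 active regions 171.2 kb apart with nearly the same H3K4me3 score, 12.2 upstream for isoform 1 and 11.3 downstream for isoform 2. Its H3K27ac score was 9.53 upstream and 6.40 downstream, and its Pol II score 3.98 and 2.36. Grip1, which binds AMPA receptors, had 2 active regions 358.6 kb apart, with H3K27ac scores of 6.52 and 4.74. The membrane cytoskeleton protein gene Epb4.1l1 had the reverse order, with 6.67 upstream and 7.81 at a downstream region of 24.4 kb.

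In several of these long genes Pol II was listed at only 1 of the promoters. Cntn1, a contactin of the axonal surface, had Pol II at the upstream region (3.49) and none listed at a region 103.5 kb downstream that had H3K27ac (3.49, against 7.88 upstream). Cntn4 repeated this over 433.4 kb, with H3K27ac scores of 5.76 and 2.70. Cntnap2, the axonal adhesion protein Caspr2, had its regions farthest apart, with a gap of 2177.7 kb. Its upstream region (isoform a) scored 8.80 for H3K4me3 and 5.70 for H3K27ac and had Pol II, and the downstream one (isoform b) scored 4.66 and 2.36 and had none listed. Magi2, a synaptic scaffold, was reversed: over 674.7 kb, Pol II (3.23) was listed at the downstream region only, and the H3K27ac scores were 5.01 and 6.69. Shank2, a core scaffold of the postsynaptic density, had its active region 102.8 kb downstream, with a H3K4me3 score of 9.93 and a H3K27ac score of 8.85. Its upstream region scored 4.68 and 3.23 and also lay wholly inside a 58.6 kb H3K27me3 region. Magi1 likewise had H3K27me3 on its upstream region only, with a score of 2.11. Ank3, whose product ankyrin-G organizes the axon initial segment, had an upstream region with a H3K4me3 score of 11.5 and an H3K27ac score of 9.10, and a downstream one, for isoforms f and g, with a H3K4me3 score of 2.47 and no other mark. The single-start genes Dlgap1 and Shank1 had neighbouring regions 0.9 and 0.6 kb apart.

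Medium spiny neuron genes gave 3 of 38 (7.89%, against 3.24% of all genes), Foxp2, Gnal and Gng7. Each had H3K27ac on every region, as did 41.8% of all 488 genes. Gnal encodes Golf, the G protein that couples dopamine and adenosine receptors to adenylyl cyclase in these neurons. Its downstream region was 16.9 kb wide and scored 11.9 for H3K4me3, 11.3 for H3K27ac and 4.73 for Pol II. The upstream one, 39.4 kb away, was 5.5 kb wide, scored 7.46 and 3.15, and had no Pol II listed. Gng7, the γ subunit that pairs with Golf, was a single-start gene, with active regions of 22.4 and 37.0 kb and 0.2 kb between them. The active marks were listed there in separate pieces. H3K27ac had regions of 9.1 and 4.9 kb in the upstream one, and Pol II had regions of 13.7 and 7.8 kb in the downstream one. Foxp2, a transcription factor of striatal projection neurons, had a strong upstream region with H3K27ac (5.27), Pol II (2.99) and H3K27me3 (2.72). Its downstream region, 277.2 kb away, scored 2.73 for H3K4me3 and had H3K27ac (2.73) and Pol II (2.58) without H3K27me3. The regions that were weaker in H3K4me3 thus still carried H3K27ac in Gnal and Foxp2.

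Phosphodiesterases, which end cyclic nucleotide signals, gave 2 of 16 genes (12.5%, against 3.24% of all genes). Pde4a had its Pol II (3.49) upstream, and its downstream region, 23.5 kb away, had H3K27ac of 3.23 against 6.12. Pde8b was the reverse, with isoform 1 downstream at 9.15 for H3K4me3, 9.70 for H3K27ac and 3.38 for Pol II, and isoform 2 upstream at 3.93 and 2.30 with no Pol II listed. Pde4dip encodes myomegalin, a scaffold of the Golgi and centrosome that binds phosphodiesterase 4D. Its 4 regions scored 9.91, 8.35, 2.05 and 9.09 for H3K4me3 from upstream to downstream. The region for isoform 4, which scored 2.05, had no other mark, and the other 3 had H3K27ac (7.57, 5.34 and 3.30) and Pol II. The H3K27me3 listed at the first region covered only 300 bp of it (5.17%).

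An active region and an H3K27me3-only region occurred together in 10 genes, 6 of them with separate transcripts (2.63% of 228). The 6 were Prkcz, Kcnip3, Net1, Oxr1, Rcan1 and Deaf1. The count depends on how overlap is defined: when at least 50% of the narrower region had to be shared, it was 25, with 9 of the 10 among them and Rcan1 lost. Among the upper 50% of each list by score it was 0. Among the 4 other genes, S1pr4, 4933439F11Rik and 2810417H13Rik had 1 start between regions at most 1.6 kb apart, and Trip4 shared 2 of its 3 regions with 2810417H13Rik.

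**Figure D5:**
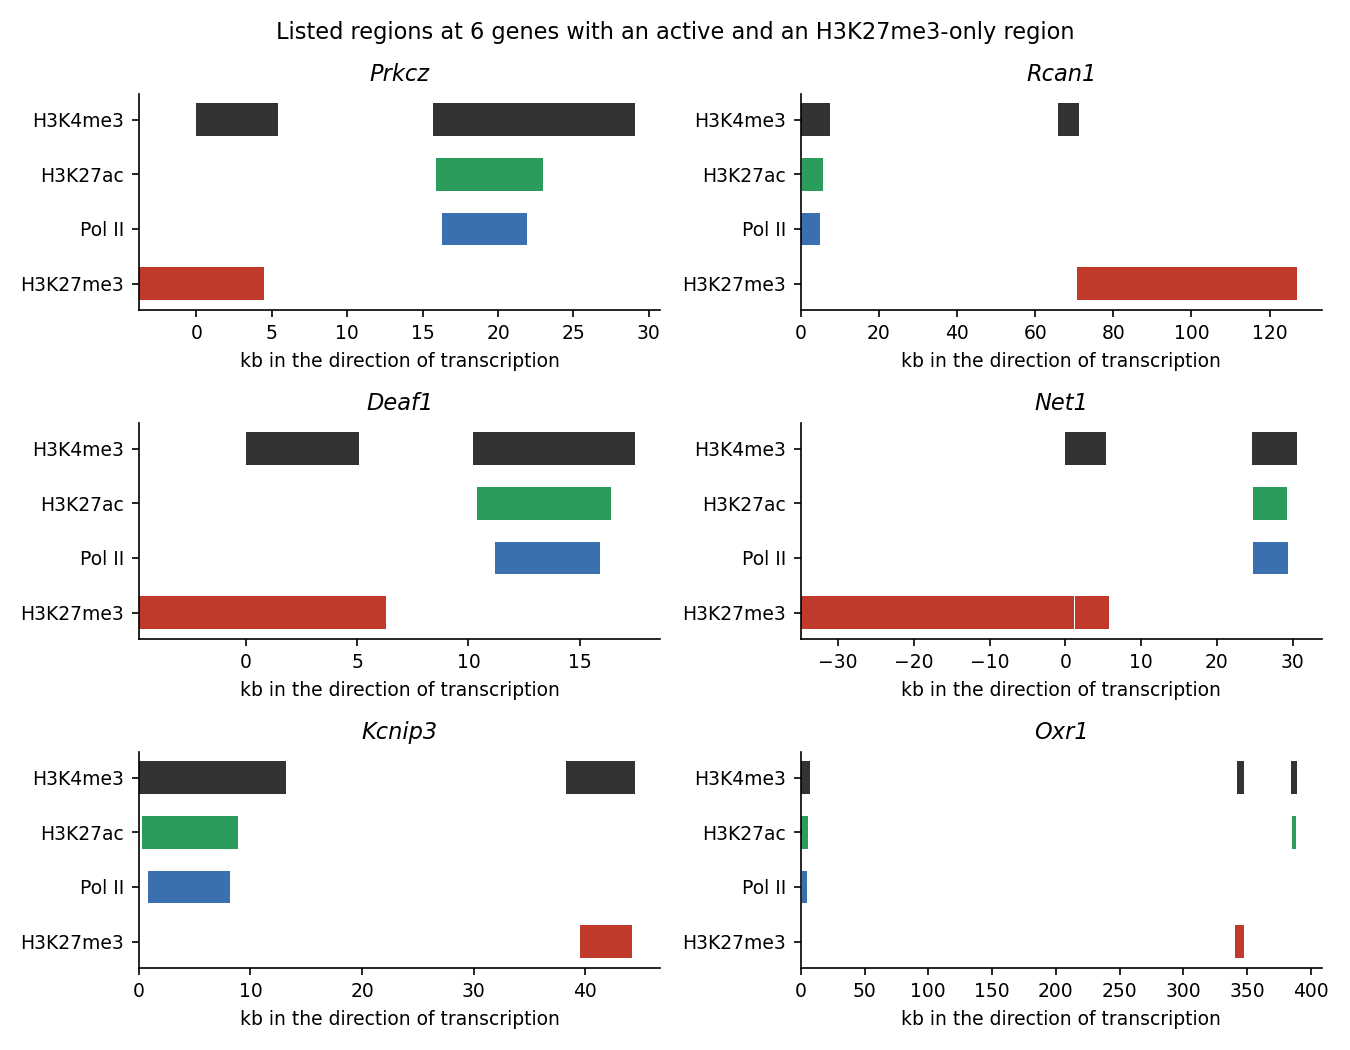
Listed regions of each mark (bars) at the 6 separate-transcript genes, in kb along the direction of transcription from the start of the first H3K4me3 region. H3K27ac and Pol II lie over one H3K4me3 region and H3K27me3 over another, and at Rcan1 the H3K27me3 bar only touches the edge of the downstream H3K4me3 region (300 bp).

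Prkcz encodes protein kinase C ζ, and its internal promoter is known to give PKMζ, a brain form without the regulatory domain. The upstream region, for isoform a (chr4:154732901-154738300 in mm9), was 5.4 kb wide and scored 4.35. H3K27me3 with a score of 2.44 covered 83.3% of it. The downstream region, for isoform b (chr4:154709201-154722600), lay 10.3 kb away, was 13.4 kb wide and scored 11.5, with H3K27ac of 8.90 and Pol II of 3.26. The sequences printed above show that the start in the H3K27me3-only region is the one with more CpG. Kcnip3, the calcium-binding protein calsenilin, had the reverse order along the gene: isoform a upstream was active (H3K4me3 8.05, H3K27ac 6.33, Pol II 2.23) and isoform b, 25.1 kb downstream, scored 3.85 with H3K27me3 of 2.41 over 75.8% of the region. In both genes the active region had the higher H3K4me3 score and was the wider, at 13.4 kb in Prkcz and 13.2 kb in Kcnip3.

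Net1 had the H3K27me3-only region upstream (chr13:3914401-3919800 in mm9, score 7.31), where 2 listed H3K27me3 regions covered 75.9% and 22.2% of it. Its active region lay 19.2 kb downstream (chr13:3889201-3895200) and was weak, with 4.73 for H3K4me3, 2.16 for H3K27ac and 2.34 for Pol II. Oxr1, which protects against oxidative stress, had 3 regions over 389.4 kb. Isoform E upstream was active (8.51, H3K27ac 5.95), the region of isoform A, 335 kb downstream, scored 8.31 and lay wholly inside a 7.2 kb H3K27me3 region with a score of 6.15, and isoform C had weak H3K27ac (2.06). Oxr1 and Net1 thus had H3K27me3 on promoters with H3K4me3 scores of 8.31 and 7.31, against a median of 7.05 over all H3K4me3 regions. Rcan1 encodes a regulator of calcineurin whose downstream promoter is known to respond to calcineurin and NFAT. Its upstream region, for isoform 1, was active (9.16, H3K27ac 4.51, Pol II 2.90). The downstream one, 58.4 kb away for isoform 2, scored 3.21 and met a 56.3 kb H3K27me3 region over 300 bp only (5.66%). Deaf1, a transcription factor, had an active region (10.03) 5.1 kb from a weak one (2.66) inside an 11.1 kb H3K27me3 region. The weak region was also listed for the neighbouring gene Eps8l2, and for Deaf1 only through a noncoding transcript, so it cannot be assigned to Deaf1 alone.

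H3K27me3 covered every promoter of some genes, often as 1 broad domain. Of the 44 separate-transcript genes with H3K27me3 on every region, 19 (43.2%) had every region overlapping the same listed H3K27me3 region. H3K27ac never bridged regions in this way (0 of 128 genes) and Pol II did in 1 of 62. H3K27me3 alone, with neither H3K27ac nor Pol II on any region, was found in 18 separate-transcript genes (7.89%) and 61 single-start genes (25%). Bdnf, which encodes brain-derived neurotrophic factor, is one of them: cortical neurons express it and supply it to the striatum. Its regions of 9.4 and 7.0 kb, 9.8 kb apart, scored 6.74 and 6.38 for H3K4me3, and both lay inside a 67.6 kb H3K27me3 region with a score of 9.21. Mecom, a zinc finger factor of blood stem cells, had regions 488.7 kb apart under separate H3K27me3 regions with scores of 11.7 and 9.0. Sept9, a septin of the cytoskeleton, had 3 regions with H3K4me3 scores of 2.60, 4.01 and 3.05, each under its own H3K27me3 region (6.00, 6.06 and 3.55). Espn, an actin bundler of hair cell stereocilia, had 3 with scores of 2.93, 3.12 and 4.79. Tcf7l2, a transcription factor of Wnt signalling, had H3K27me3 regions of 204.1 and 50.3 kb at promoters 140.0 kb apart.

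Gnas showed active marks on 1 promoter inside a H3K27me3 domain. This imprinted gene encodes the stimulatory G protein α subunit, and its upstream promoters give NESP55 and XLαs. The regions for NESP55 (7.0 kb, score 3.70) and XLas (11 kb, score 4.60) were H3K27me3-only, and the most downstream region (11.3 kb, score 7.34) had H3K27ac of 4.27 and Pol II of 2.52. A 148.8 kb H3K27me3 region with a score of 9.58 covered all 3. The lists do not separate the parental alleles. Trp73, a p53 relative, had H3K27ac (2.14) and Pol II (2.21) at its upstream region, and its internal promoter, listed for isoforms b and c, scored 2.05 with neither. A 77.9 kb H3K27me3 region reached both. Shroom3, an actin-binding protein of epithelia, had H3K27me3 on all 3 regions and weak H3K27ac (2.02) on the last. Lingo2, a transmembrane protein with leucine-rich repeats, had H3K27me3 at both regions, 1099 kb apart. H3K27ac (4.76) and Pol II (2.62) were listed at the upstream one only. Accn1, an acid-sensing channel, had H3K27ac of 3.68 and 3.74 at regions 807.3 kb apart, with Pol II and a 91.9 kb H3K27me3 region at the downstream one only.

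A list of 70 genes known for more than 1 promoter recovered 16 of the 64 with H3K4me3 (25%, against 3.24% of all genes), 14 of them with separate transcripts. The list was picked for known promoters, so a share above that of all genes was built into the choice. H3K27ac was on every region of 7 and mixed in 7, and H3K27me3 was on every region of 4. Crem shows a weaker internal promoter: that promoter is known to give ICER, a repressor induced by cAMP. Its downstream region scored 3.5 for H3K4me3 and 2.36 for H3K27ac with no Pol II listed, against 6.92, 5.70 and a Pol II score of 3.57 upstream. Fgf14, which modulates sodium channels, had 10.97 and 10.7 at the upstream isoform b and 4.84 and 3.21 at isoform a, 475.2 kb downstream, for H3K4me3 and H3K27ac. Dclk1, a microtubule-associated kinase, was more even, with H3K27ac of 5.47 and 7.44 at active regions 207.8 kb apart. At the downstream one Pol II was listed over 20.8 kb, against 4.6 kb upstream. Arhgef7, an exchange factor for Rac, had H3K27ac of 6.73 and 4.03 at active regions 23.9 kb apart. Plec, the cytolinker plectin, had 1 active upstream region (8.41 for H3K4me3), and its 2 further regions (3.08 and 3.86) had no other mark.

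Other genes with 3 regions divided their marks in different ways. Chn1, a Rac GTPase-activating protein of neurons, had active regions at both upstream starts (H3K27ac 5.01 and 8.52). Its most downstream region was 2.6 kb wide and scored 2.01 with no other mark. Dpp6, an auxiliary subunit of Kv4 potassium channels, had H3K27me3 (3.32) beside weak H3K27ac (2.06) at its first region and active regions at the other 2, with H3K27ac of 7.31 and 5.28. Prickle2, a planar cell polarity protein, had H3K27ac at all 3 (2.95, 3.27 and 6.64) and Pol II at the last only. Developmental transcription factors, which are rarely active in adult neurons, gave 1 gene of 65 (1.54%, against 3.24% of all genes), Runx2, with its H3K27ac (4.52), Pol II (2.92) and H3K27me3 (4.89) at the downstream region.

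The share of genes whose 2 promoters differed in H3K27ac neither rose nor fell steadily with the distance between them. A relation was not tested, and the intervals are wide (22.2 to 50.5 below 10 kb and 21.5 to 55.1 beyond 150 kb). The share of mixed genes was 17 of 48 below 10 kb (35.4%), 22 of 79 from 10 to 50 kb (27.8%), 14 of 53 from 50 to 150 kb (26.4%) and 13 of 35 beyond (37.1%), with intervals that all overlap. H3K27me3 that bridged both regions was found in 11, 5, 1 and 1 genes of these classes.

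CpG content was higher in regions with H3K27ac or with Pol II than in regions without, though not in every combination of marks. RefSeq starts fitted the regions in only 1 way in 142 of the 228 separate-transcript genes. Starts that kept their region under every possible shift between the builds gave 271 regions for comparison, with the first and last region both held in 126 genes. The remaining genes had no start in the table (35), no pairing (36) or more than 1 possible pairing (15). The median number of CpG in the 250 bases before the start was 12, against 6 over all 32851 starts of the table. It was 14 in regions with H3K27ac and 8 without, and 15 with Pol II and 9 without. With and without H3K27me3 it was 12 and 12. Regions with all 3 marks had 18, active regions 15, H3K27me3-only regions 10, and regions with H3K4me3 alone 5. Upstream starts had 15 and downstream starts 8 in these 126 genes, so position along the gene and CpG content moved together with the marks here, and their part in the marks was not tested. Within the 38 paired genes that were mixed for H3K27ac, the start with H3K27ac had more CpG in 29 and fewer in 9, among the latter Prkcz and Kcnip3.

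Single-start genes had lower H3K4me3 scores and more often H3K27me3-only regions, and these counts were not matched for score. Their higher-scoring regions had a median H3K4me3 score of 6.11 and their lower-scoring ones of 2.92, against 8.68 and 4.72 in separate-transcript genes. H3K27me3-only at both regions was the commonest combination, in 61 of 243 genes with 2 regions (25.1%), against 17 of 215 separate-transcript genes (7.91%). Of the 94 single-start genes with H3K27me3 on every region, 78 (83.0%) had both under 1 listed H3K27me3 region. An example is 1700109F18Rik, whose regions of 37.3 and 73.7 kb had 0.3 kb between them under a 167.1 kb H3K27me3 region with a score of 13.9. Prhoxnb, whose product acts in purine breakdown, had regions of 2.7 and 34.6 kb under one of 224.9 kb.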

How the data were processed

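Chromatin immunoprecipitation with sequencing was done on 1 library for each of 4 antibodies. The submitters' processing notes name the tools Bowtie 0.12.7 and MACS 1.4 and the build mm9, without saying what each did. The deposited lists pair each region with a RefSeq transcript, a symbol and a score given by the authors over input. The scale of the score is not given in the sources used here, and it was used only to describe, rank or filter regions within a list. Per the file names, regions lie within 3 kb of a start. Lines without a symbol were left out. Positions are printed as mm9, counted from 1.

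Genes with at least 2 different regions on 1 chromosome were taken, and regions were intersected with bedtools 2.31.1, counting 1 bp as shared. A gene was a separate-transcript gene when no transcript was listed with more than 1 region, and a single-start gene when 1 transcript was listed with regions at most 6 kb apart. RefSeq starts of GRCm38.p6 were used for sequences only. Transcript accessions matched its gene table in 97.6% of cases. Python 3.11.15, pandas 2.3.3, numpy 2.4.6, scipy 1.17.1 and matplotlib 3.10.9 were used, and the classification was tested on simulated data. No comparison was tested for significance, since there was 1 library per antibody.

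The members and gene lists were chosen with earlier results of these data known. Named genes were the 8 with the most regions, up to 12 with an active and an H3K27me3-only region, the 6 with the longest span, 6 with all regions active, 6 with all regions H3K27me3-only, and the members on lists of alternative promoters, medium spiny neurons and phosphodiesterases. Members on the synaptic and developmental lists, and other genes where stated, were named outside this rule. Not every gene that the rule would name is reported here. The alternatives tried were a larger overlap, higher scores, joining of near regions, regions of 1 symbol, protein-coding accessions, lists of equal length and separate-transcript genes alone.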

Additional observations from a re-analysis of the deposited data

How the results depend on the processing

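No paired analysis was possible because each antibody had 1 library and no result came from a test, and for the same reason no replicate could be left out. Of 40 planned comparisons with another setting, 13 stayed near the value given and 27 did not. The number of genes, 488, was 67 in the upper 50% of each list by score, 222 with regions nearer than 5 kb joined, 276 with regions listed for 1 symbol and 95 with lists of the same length (7799 regions). Separate-transcript genes numbered 228, and 55 and 69 in the upper 50% and with equal lists. The H3K27ac share of 58.0% was 69.0%, 70.4%, 53.2% and 88.4% in the upper 50%, with joining, with 1 symbol and with equal lists. The Pol II share of 40.4% was 45.7%, 48.9%, 35.3% and 79.0%. The H3K27me3 share of 36.5% was 5.43%, 29.8% and 10.5% in the upper 50%, with joining and with equal lists, and 29.7% when at least 50% of the narrower region had to overlap. Genes mixed for H3K27ac numbered 159, and 26, 72, 83 and 14 in the upper 50%, with joining, with 1 symbol and with equal lists. Genes with an active and an H3K27me3-only region numbered 10, and 0, 6, 5 and 3 in these, and 25 with the 50% overlap. Of the 3 with equal lists only Oxr1 was among the 10, and Dnajc6 and Stx5a were not. In separate-transcript genes alone, a setting chosen after seeing the data, the shares were 71.8%, 50.6% and 28.4%, and the counts 73 and 6. Restricting the lists removes weak regions, which takes genes out of the set; the cause of the other shifts was not tested. Depth could not be assessed from these files.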

Other observations

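Several gene families, among them olfactory and vomeronasal receptors, were found among the single-start genes. The families were chosen by symbol after their values were seen. Olfactory receptors made up 11 of the set out of 92 listed with H3K4me3 (11.96%), all with 2 regions around 1 start, against 1.62% of all genes with H3K4me3. H3K27me3 lay on all 22 regions and the active marks on 0, and their H3K4me3 scores lay between 2.0 and 2.70, close to the lowest listed value. Of all single-start regions scoring 2 to 3, 64.8% had H3K27me3. Vomeronasal receptors gave 13 of 89 (14.6%), with H3K27me3 on 20 of 26 regions, H3K27ac and Pol II on 0, and scores of 2.05 to 2.96. Clustered protocadherins, which give each neuron its surface identity, gave 13 of 58 (22.4%), all single-start. Of their 21 regions, 14 had H3K27me3, 1 had Pol II and 0 had H3K27ac, with scores of 2.04 to 4.45. Among all single-start regions H3K27me3 was at 64.8% of those scoring 2 to 3 and 54.2% of those scoring 3 to 5. H3K27ac was at 6.1% and 30.1% of these, so the H3K27me3 count is near that of single-start regions of such scores. Histone genes gave 10 of 62 (16.1%, against 3.24% of all genes), of which 4 were 1 transcript placed at separate copies. Their 9 regions had the opposite marks, with H3K27ac on 6, Pol II on 7 and H3K27me3 on 0. Reads from near-identical copies may not be placed uniquely, and how they were handled is not given in the sources used here.

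Several further genes, also picked after their values were seen, had unlike marks at their promoters without an active and an H3K27me3-only region together. Prkg1, the cGMP-dependent kinase, had H3K27me3 alone at the upstream α isoform (H3K4me3 6.01, H3K27me3 8.26). The β isoform, 92.9 kb downstream, scored 11.3 for H3K4me3, with H3K27ac (4.41), Pol II (2.30) and weak H3K27me3 (2.41). Tsc22d3, a glucocorticoid-induced leucine zipper gene, had H3K27me3 (4.60) upstream for isoform 1 and H3K27ac (3.36) for isoform 2, at regions of equal width (6.3 kb) 50.9 kb apart. Snrpn, an imprinted gene, had H3K4me3 alone at a weak upstream region (2.57) and an active region 85.8 kb downstream (7.11, H3K27ac 4.86). Mitf, a factor of pigment cells, had H3K27me3 (2.58) at its upstream region and no other mark at a region 182.1 kb downstream. Dnmt3a, a DNA methyltransferase, had its active region at isoform 1 (24.4 kb wide, H3K27ac 14.9), and the 2 neighbouring regions at isoform 2 scored 2.39 and 2.41, with H3K27ac (2.64) at the last.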
